A study of Mus musculus with 12 samples.

Results

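The 54 cytosolic ribosomal protein genes described here comprise 29 genes of the large (60S) ribosomal subunit and 25 of the small (40S) subunit, out of 39017 genes in the deposited count table. They were taken by symbol from a fixed list of 55, with the gene identifier that held the most counts where a symbol had several. The listed symbol left out is Rpl24, because the identifier of the row with that name (ENSMUSG00000022601) belongs to Zbtb11, the next gene on chromosome 16, in GENCODE; the other 54 identifiers have the same name there. All 54 passed the filter on low counts that left 19370 genes for testing, so none of these was lost. The expression of each gene was read in 12 bulk mammary tumours by sequencing of total RNA depleted of ribosomal RNA.

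Female FVB/N mice aged 8 to 12 weeks received 250000 NIC cells each in a mammary fat pad, where the tumours grew. NIC is a mouse breast cancer line that is positive for the receptor ErbB2, and the parent line of all 4 groups lacks p66ShcA, the longest protein made from the adaptor gene Shc1. The p66High cells were engineered to overexpress p66ShcA constitutively and the p66Low cells were not; the promoter is not given in the sources used here. Each line gave 3 tumours from parental cells and 3 from an aggressive population, which had passed 2 rounds of selection in the fat pad and was then returned to culture. Groups are named by p66 level and stage, such as p66Low parental. The labels leave unsaid how many clones a line holds and whether mice differ within a group. In each p66High group, parental and aggressive alike, the titles of replicates 1 and 2 carry one common number followed by L in one and R in the other, which no pair of p66Low titles does. Whether each such pair grew in 1 mouse is not stated; if it did, each p66High group holds 2 mice and not 3. A p-value here therefore reflects the spread among these samples, which may be technical. As described, the tumours of a group share a cell population. Selection or p66 level thus cannot be told apart from other differences between the populations. With each pair summed to 1 sample, the number of members past the threshold described below was 30 in place of 29 for p66Low selection, 24 in place of 26 between aggressive groups and 2 in place of 5 in the interaction.

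A ribosome is built from ribosomal RNAs and about equal numbers of its many proteins, and the mRNAs of these proteins are among the most abundant in growing cells. Their transcription draws on Myc and on ETS-family factors, and their mRNAs begin with a run of pyrimidines, the 5′ terminal oligopyrimidine (TOP) motif, through which mTOR signalling and the protein LARP1 set how much of each mRNA is translated and how stable it is. Signalling from ErbB2 feeds into mTOR and so into these routes.

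Library totals ran from 17.4 to 76.1 M (mega-counts). Levels are given in CPM, the counts per 1 M of library after TMM scaling, which aligns libraries on the assumption that most genes do not differ. Shc1 followed the labels, at 59.0 to 69.9 CPM in the 6 p66Low tumours and 223 to 774 CPM in the 6 p66High tumours. The 774 CPM was that of p66High aggressive replicate 3, and the other p66High tumours had at most 271 CPM. The 9 tumour epithelium markers were detected, with a summed level of 2258 to 3418 CPM. Lymph node stroma markers (9 of 10 listed were in the table) summed to 61.5 CPM in p66High parental replicate 3, 184 and 259 CPM in p66Low aggressive replicates 1 and 2, and at most 9.35 CPM in the other 9 libraries, so results are also given without those 3 libraries. In bulk tumours, fewer cells of a type and less RNA per cell cannot be told apart.

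Start sites are shown because TOP mRNAs are defined there, for those of the 6 members with the smallest p in each of 2 comparisons that had an entry in the RefSeq start table. Of these members Rpl3, Rpl8 and Rpl7 had no entry, nor had Rpl30, Rpl32, Rplp1, Rps14, Rps20 and Rps29 among the others. Each window holds 15 bases before the most upstream RefSeq start and 15 from it on, 5′ to 3′ on the gene's strand, in build GRCm38.p6. Capitals mark a run of at least 8 pyrimidines (C or T). The first 4 belong to genes that were lower in p66Low aggressive than in p66Low parental tumours, and the other 5 to genes that were higher in p66High than in p66Low aggressive tumours.
Rps18, chr17:33955651-33955680, minus strand: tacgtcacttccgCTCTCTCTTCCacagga
Rpl37, chr15:5116598-5116627, plus strand: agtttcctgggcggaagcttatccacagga
Rps2, chr17:24720048-24720077, plus strand: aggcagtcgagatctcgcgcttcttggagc
Rpl7a, chr2:26910792-26910821, plus strand: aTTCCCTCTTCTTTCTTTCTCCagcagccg
Rpsa, chr9:120127751-120127780, plus strand: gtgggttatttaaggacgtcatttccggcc
Rpl15, chr14:18270972-18271001, minus strand: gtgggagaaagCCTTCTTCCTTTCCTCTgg
Rps19, chr7:24884577-24884606, plus strand: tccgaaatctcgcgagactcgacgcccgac
Rpl4, chr9:64173372-64173401, plus strand: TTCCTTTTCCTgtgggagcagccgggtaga
Rps9, chr7:3704026-3704055, plus strand: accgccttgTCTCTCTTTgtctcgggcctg

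A start site entry was matched for 45 of the 54 members. In the window of 30 bases, 21 of these 45 (46.7%) held such a run on the coding strand, against 13.9% of the 27025 genes with an entry. A gene counted, here and for the motif below, if any of its RefSeq starts matched. Genes with more starts thus had more chances of a match. On the opposite strand the run was found in 1 member (2.22%) and in 15.3% of all genes. The ETS-type motif CCGGAAG, searched on both strands of the 300 bases around the start, was found in 19 members (42.2%) and in 9.93% of all genes. A match is a description of the letters and not a site.

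Over the 12 tumours, the mean level per kilobase of mRNA ran from 10.5 to 1196 CPM per kilobase. The highest were Rpl32 at 1196, Rpl13a at 1056 and Rplp1, a protein of the flexible stalk that recruits translation factors, at 1047 CPM per kilobase. Lowest on the same scale were Rps27 at 10.5, Rps23 at 11.9 and Rps13 at 13.2 CPM per kilobase, all of the small subunit.

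Ribosomal protein genes have many processed pseudogenes, and how reads that map to several places were counted is not given in the sources used here. Of the words of 50 bases in the mRNA of Rps27, only 1.35% occurred in no other annotated gene, against 4.91% for Rpl35, 6.16% for Rpl5 and 97.0% for Rps3. The mRNA of Rpl7a shared words with 119 pseudogenes and that of Rps2 with 68. Across the 54 genes, level per kilobase and share of unique words had a Spearman rank correlation of 0.40, in which genes are not independent replicates. The 17 members with less than 25% unique words had a median of 66.9 CPM per kilobase and the other 37 had 259.7. Levels of the former are therefore uncertain, and the comparisons that follow are between tumours, not between genes.

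**Figure D1:**
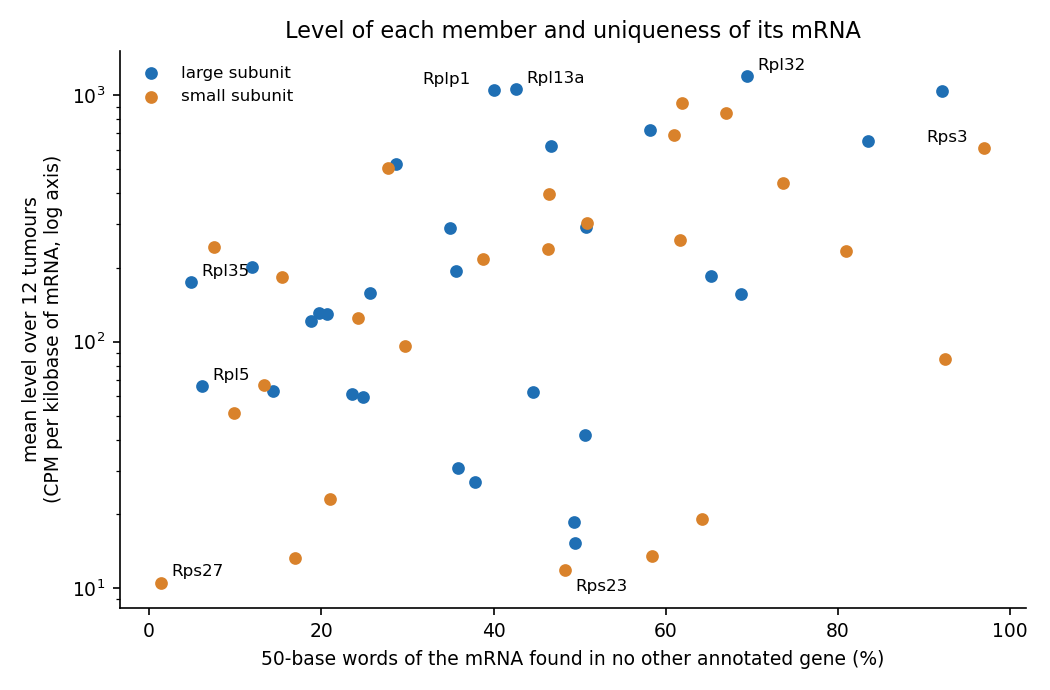
Mean level of each of the 54 genes over 12 tumours (CPM per kilobase of mRNA, log axis) against the percentage of its 50-base words found in no other annotated gene, with large subunit genes in blue and small subunit genes in orange. Rps27, with 1.35% unique words, is the lowest at 10.5 CPM per kilobase, and Rpl32 the highest at 1196.

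The 3 p66Low aggressive tumours had the lowest levels of ribosomal protein mRNA of the 12. The summed level of the 29 large subunit genes was 8962, 7715 and 9540 CPM in p66Low parental tumours and 8066, 10655 and 9163 CPM in p66High parental tumours. It was 6334, 6489 and 5910.3 CPM in p66Low aggressive tumours and 8085, 8431 and 9941 CPM in the p66High aggressive tumours. Only the p66Low aggressive group lay wholly below the other 9 tumours.

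The 25 small subunit genes had the same lowest group. They summed to 6081, 5487 and 6581 CPM in p66Low parental, 5561, 7719 and 6369 CPM in p66High parental, 4499, 4537 and 4018 CPM in p66Low aggressive, and 5355, 5726 and 6737 CPM in the p66High aggressive tumours. Again the p66Low aggressive tumours did not reach the lowest of the others.

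A sum is carried by its most abundant genes, so each gene was also set against its own mean log2 level over the 12 tumours. The median of the 54 genes on that scale was 0.11, -0.05 and 0.24 in p66Low parental tumours and -0.04, 0.32 and 0.14 in p66High parental tumours. It was -0.28, -0.29 and -0.41 in p66Low aggressive tumours and -0.05, 0.04 and 0.26 in p66High aggressive tumours. The pooled SD of this median within groups was 0.14. Every p66Low aggressive tumour lay below every other tumour, while the other 3 groups overlapped.

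**Figure D2:**
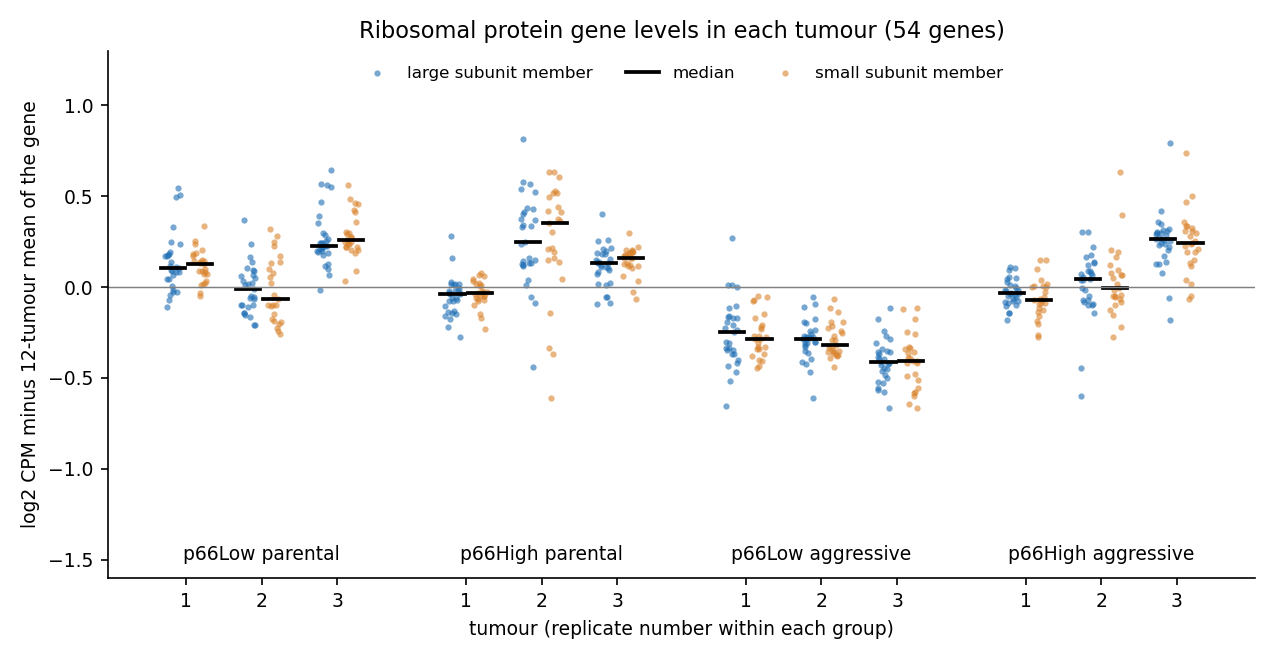
Log2 CPM of each of the 54 genes minus its mean over the 12 tumours, by tumour, with large subunit genes in blue, small subunit genes in orange and the median of each as a black bar. Both subunits sit lowest in the 3 p66Low aggressive tumours, whose medians over all 54 genes were -0.28, -0.29 and -0.41.

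The members largely moved together from tumour to tumour. The SD of log2 level over 12 tumours had a median of 0.26 over the 54 genes, and after subtraction of each tumour's own member median it was 0.11. Rpl7 varied most (SD 0.47), followed by Rps16 (0.41) and Rpl3 (0.37). Rpl27 (0.12), Rpl6 (0.16) and Rps27 (0.16) varied least.

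Rpl27, a large subunit protein, shows the flat end of this range. It measured 21.3, 18.7 and 21.6 CPM in p66Low parental, 17.03, 20.9 and 19.0 CPM in p66High parental, 19.0, 18.2 and 16.7 CPM in p66Low aggressive, and 18.6, 17.99 and 18.1 CPM in the p66High aggressive tumours. All compared groups overlapped, and Rpl27 passed in no comparison.

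Ribosomal protein mRNA of both subunits was lower after selection of the p66Low line, in the comparison of p66Low aggressive with p66Low parental tumours. By edgeR's quasi-likelihood test with Benjamini-Hochberg adjustment over all genes tested (threshold 0.05), 29 of the 54 members fell and none rose, where 7.03% of all genes tested fell and 9.6% rose. These were 17 of 29 large and 12 of 25 small subunit genes. All 54 fitted log2 differences were below 0, from -0.93 to -0.19, where 52.3% of all genes were below 0. The median was -0.44 (a ratio of 0.737), with -0.43 in the large and -0.48 in the small subunit, and the median of all genes tested was -0.02. Unadjusted p was below 0.05 for 44 members, against 30.9% of all genes. For 45 members every p66Low aggressive tumour lay below every p66Low parental tumour, a pattern seen in 16.6% of all genes.

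Rpl3, which shapes the centre where peptide bonds form (chromosome 15, 80077791 to 80091868, build mm10), changed most. It stood at 104, 107 and 129 CPM in p66Low parental tumours and at 57.6, 62.7 and 57.0 CPM in p66Low aggressive tumours. In the p66High line it stood at 75.3, 96.9 and 83.2 CPM in parental and 77.7, 74.5 and 94.8 CPM in aggressive tumours. The p66Low groups did not overlap and the p66High groups did. The log2 difference on p66Low selection was -0.93 ± 0.13 (SE, n = 3 against 3; edgeR adjusted p = 0.00113), and Rpl3 passed with each of the 12 tumours left out in turn.

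Rps18, a protein of the head of the small subunit, had 42.1, 44.8 and 51.5 CPM in p66Low parental tumours against 30.6, 30.5 and 27.8 CPM after selection. The log2 difference was -0.64 ± 0.10 (SE; edgeR adjusted p = 0.00274). Its start window holds a run of 11 pyrimidines, CTCTCTCTTCC.

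Rps2, a protein near the entry of the mRNA channel, had 24.9, 25.5 and 30.3 CPM in p66Low parental tumours against 18.5, 17.6 and 17.2 CPM in p66Low aggressive tumours. Its log2 difference was -0.60 ± 0.12 (SE; edgeR adjusted p = 0.0063), and the longest run of pyrimidines in its window is 6 bases. Rpl7a, an RNA-binding protein of the large subunit whose window has a run of 21, had 130, 111 and 125 CPM against 89.0, 89.0 and 85.0 CPM, a log2 difference of -0.48 ± 0.10 (SE; edgeR adjusted p = 0.00864). Both pairs of groups were apart.

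Over the 45 genes with a start window, medians with and without a pyrimidine run were close. The median log2 difference on p66Low selection was -0.42 in the 21 members with a run of at least 8 and -0.45 in the 24 without, and 11 and 13 of them fell. With and without CCGGAAG it was -0.37 (19 members) and -0.44 (26 members). These medians are descriptions, and the difference between them was not tested.

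Members with few unique words fell as well. Of the 17 with less than 25% unique words, 12 fell, with a median log2 difference of -0.47, and of the other 37, 17 fell, with a median of -0.44. Rows named as processed pseudogenes of ribosomal protein genes, 211 in all, took 0.954%, 0.820% and 1.06% of counts in p66Low parental, 0.911%, 1.08% and 1.01% in p66High parental, 0.805%, 0.765% and 0.641% in p66Low aggressive, and 0.923%, 0.958% and 1.07% in p66High aggressive tumours. They were thus also lowest in the p66Low aggressive group, and their part in the result was not tested.

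Markers of other cells moved with this comparison. All 13 T cell markers rose, and their sum was 170, 288 and 49.6 CPM in p66Low aggressive against 5.72 to 7.35 CPM in p66Low parental tumours. B cell markers (9 of 10 found, 8 rose) summed to 132, 185 and 3.77 CPM against 1.04 to 1.38 CPM, and macrophage markers (10 of 11 found, 6 rose) to 1046, 1255 and 701 CPM against 476 to 551 CPM. Of 10 fibroblast markers 1 rose, with sums of 4553, 6519 and 2060 CPM against 2593 to 3196 CPM, and 1 of 9 tumour epithelium markers rose. Of 15 adipocyte markers 14 lay above 0 (median 1.46) and 1 fell, and of 12 proliferation markers 9 lay below 0 (median -0.15) and none passed. None of the lymph node, B cell, T cell, macrophage or fibroblast markers found was at 0 in all libraries. The p66Low aggressive tumour with almost no lymph node genes, replicate 3 with 1.46 CPM of its markers, had the lowest ribosomal protein level of the 12, with a median of -0.41 against each gene's mean.

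Without the 3 libraries high in lymph node markers, replicate 3 was the only p66Low aggressive tumour, and the median log2 difference was -0.55 with all 54 members below 0. That fit assumes that a lone tumour varies like the other groups, and in it most calls were lost, among members and over all genes tested. The count of members past the threshold also moved with single tumours. It ran from 5 members without p66Low parental replicate 3 to 31 without p66Low parental replicate 2. It was 11 without p66Low parental replicate 1 and 14, 9 and 15 without p66Low aggressive replicates 1, 2 and 3. Scaling by library size alone gave 14.

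A short RNA also moved with the members in part. Rows named Metazoa_SRP, copies of the 7SL RNA of the signal recognition particle, took 5.89%, 5.24% and 5.40% of counts in p66Low parental, 3.36%, 6.81% and 4.71% in p66High parental, 2.42%, 2.94% and 3.85% in p66Low aggressive, and 2.71%, 3.81% and 5.47% in p66High aggressive tumours. Its share was lower in all 3 p66Low aggressive than in all 3 p66Low parental libraries. Within each p66High group it rose in the order of the member medians. Within the p66Low aggressive group it ran the other way, highest in replicate 3, where the members were lowest. The part of library composition in the result was not tested.

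Between the aggressive populations, p66High tumours had more ribosomal protein mRNA than p66Low tumours. By edgeR, 26 of 54 members rose and none fell (15 large, 11 small subunit), where 8.92% of all genes rose and 12.1% fell. Log2 differences were above 0 in 52 members and below 0 in 2 (48.1% of all genes were below 0), from -0.08 to 0.88. Unadjusted p was below 0.05 for 44 members, against 33.4% of all genes. The median was 0.41 (a ratio of 1.33), and the same 0.41 in either subunit, against 0.02 over all genes tested. For 43 members every p66High aggressive tumour lay above every p66Low aggressive tumour, a pattern of 19.4% of all genes. The p66Low aggressive tumours enter both this and the preceding comparison, so the 2 sets of values share their low group.

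Rpl7 (chromosome 1, 16101295 to 16104662, build mm10), a large subunit protein that binds RNA, differed most. It stood at 438, 451 and 435 CPM in p66Low aggressive tumours and at 744, 778 and 922 CPM in the p66High aggressive tumours. In parental tumours it measured 667, 597 and 681 CPM in p66Low and 836, 1211 and 910 CPM in p66High. At both stages all p66High tumours lay above all p66Low tumours. The log2 difference between aggressive groups was 0.88 ± 0.14 (SE, n = 3 against 3; edgeR adjusted p = 0.00155).

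Rpsa, a small subunit protein also known as a laminin receptor, had 273, 299 and 238 CPM in p66Low aggressive and 413, 405 and 516 CPM in the p66High aggressive tumours. The log2 difference was 0.72 ± 0.14 (SE; edgeR adjusted p = 0.0039). Its parental tumours overlapped, at 391, 347 and 434 CPM in p66Low and 368, 460 and 429 CPM in p66High.

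Rpl15, which is needed for processing of large subunit RNA, stood at 41.3, 34.1 and 31.5 CPM against 50.6, 55.03 and 57.9 CPM, a log2 difference of 0.62 ± 0.12 (SE; edgeR adjusted p = 0.00403). Rps19, the gene mutated most often in Diamond-Blackfan anaemia, stood at 182, 181 and 155 CPM against 263, 249 and 315 CPM, a log2 difference of 0.67 ± 0.14 (SE; edgeR adjusted p = 0.00663). In both genes the aggressive groups were apart.

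Rpl4, whose protein lines the exit tunnel of the nascent chain, had 786, 819 and 738 CPM in p66Low aggressive and 1022, 1091 and 1262 CPM in the p66High aggressive tumours (log2 difference 0.53 ± 0.11, SE; edgeR adjusted p = 0.00741). Rps9, a small subunit protein near the mRNA entry, had 482, 489 and 420 CPM against 616, 661 and 772 CPM (0.56 ± 0.13, SE; edgeR adjusted p = 0.00924). Neither gene overlapped between these groups, and Rps9 did not pass without p66High aggressive replicate 3.

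At the low end were Rpl30 (log2 difference -0.08), a large subunit protein with 34.5, 31.8 and 26.8 CPM in p66Low aggressive and 32.3, 25.1 and 30.2 CPM in the p66High aggressive tumours, and Rps27, with 3.49, 3.33 and 3.33 CPM against 3.65, 2.99 and 3.45 CPM. Their groups overlapped. Rpl30 changed sign, to 0.14, without the 3 libraries high in lymph node markers.

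Immune markers moved in the opposite direction in this comparison. All 13 T cell markers, all 9 B cell markers found, 8 of 10 macrophage markers and 4 of 9 lymph node markers fell in p66High relative to p66Low aggressive tumours. So did 3 of 9 tumour epithelium markers (median log2 difference -0.23) and 1 of 15 adipocyte markers, all 15 of which lay below 0 (median -1.82). Of 12 proliferation markers all lay above 0 (median 0.27) and none passed. The part of these cells in the result was not tested. Without the 3 libraries high in lymph node markers the median log2 difference of the ribosomal protein genes was 0.51 with all 54 above 0. That fit has a lone p66Low aggressive tumour, and in it most calls were lost, among members and over all genes tested. Leaving out p66High aggressive replicate 3 left 6 members past the threshold and a median of 0.28. The count was 16 without p66Low parental replicate 1, p66High parental replicate 3 or p66High aggressive replicate 2, it was 14, 13 and 15 without p66Low aggressive replicates 1, 2 and 3, and scaling by library size gave 15.

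**Figure D3:**
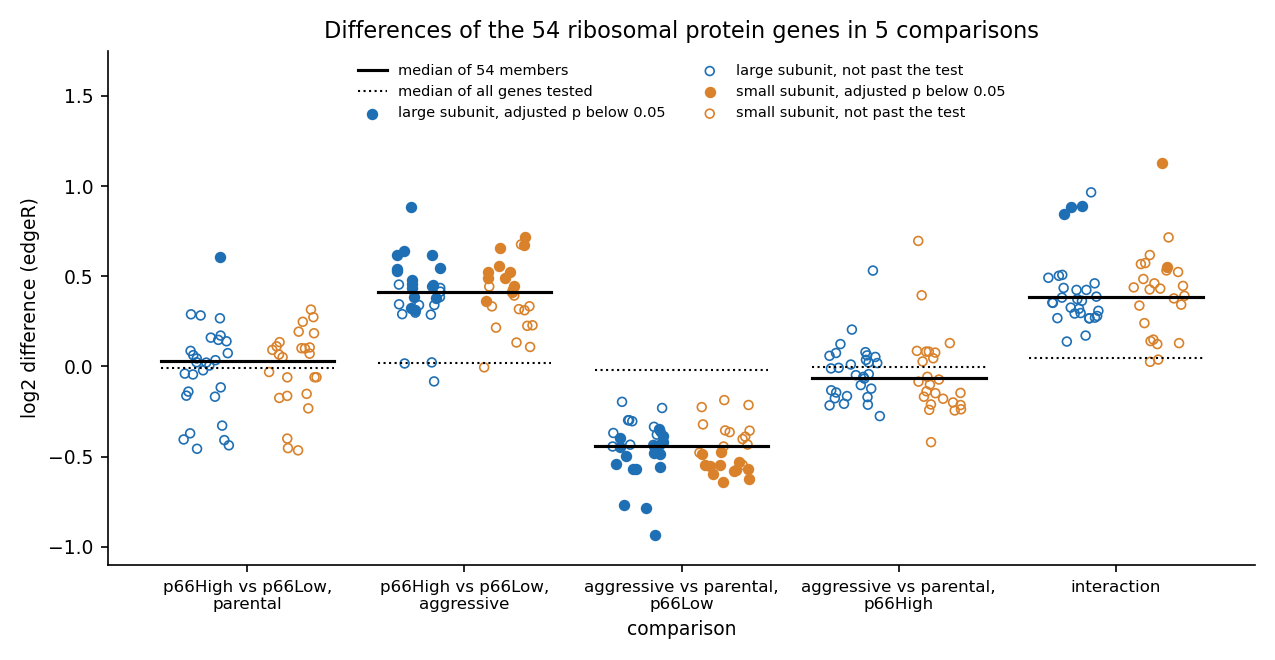
Fitted log2 differences of the 54 genes in each of 5 comparisons, with large subunit genes in blue and small subunit genes in orange, filled where edgeR's adjusted p was below 0.05; solid lines are medians of the 54 and dotted lines medians of all genes tested. All 54 points lie below 0 for p66Low selection, 52 lie above 0 for p66High against p66Low aggressive tumours, and the other p66 comparison and p66High selection centre near 0.

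Among parental tumours, few ribosomal protein genes differed between p66High and p66Low. One member, Rpl7, rose and none fell by edgeR (3.98% of all genes rose and 4.1% fell), and the median log2 difference was 0.03, with 30 members above and 24 below 0 (51.2% of all genes were below 0). The groups did not overlap in 2 members in the higher direction, Rpl7 and Rpl15, and in 8 in the lower direction, against 15.6% and 14.2% of all genes. Unadjusted p was below 0.05 for 11 members, against 22.9% of all genes. DESeq2 called 5 members lower and 1 higher, where 2549 of all 19370 genes passed in either direction. Cell markers shifted between parental groups as well. All 15 adipocyte markers lay above 0 (median 1.82) and 1 rose, and all 12 proliferation markers lay below 0 (median -0.30) and none passed. Their part was not tested.

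Rpl7 was higher in p66High parental tumours by a log2 difference of 0.60 ± 0.14 (SE; edgeR adjusted p = 0.0205). It did not pass without p66Low parental replicate 1, 2 or 3, without p66High parental replicate 2, or without the 3 libraries high in lymph node markers. Without p66Low parental replicate 2 the count of members past the threshold was 3. At the other end was Rps29, a zinc-binding protein of the small subunit, with 9.32, 8.08 and 10.1 CPM in p66Low and 6.54, 5.70 and 7.68 CPM in p66High parental tumours. Its groups were apart but its log2 difference of -0.46 ± 0.16 (SE) had an edgeR adjusted p of 0.103.

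Selection of the p66High line gave no member past the threshold in edgeR (5.94% of all genes passed, 3.11% higher and 2.82% lower). Unadjusted p was below 0.05 for 4 members, against 22.7% of all genes. DESeq2 called 2, Rps4x and Rps16, where 2261 of all 19370 genes passed in either direction. The median log2 difference was -0.06, from -0.42 for Rps4x to 0.70 for Rps16, with 33 members and 50.3% of all genes below 0. Rps16, whose tail reaches the transfer RNA in the small subunit, had 12.3, 9.43 and 14.1 CPM in p66High parental and 11.9, 22.4 and 24.1 CPM in the p66High aggressive tumours. One aggressive tumour lay within the parental range and the other two above it (log2 difference 0.70 ± 0.24, SE; edgeR adjusted p = 0.109). Without p66High aggressive replicate 1 it passed, with a log2 difference of 0.95 (edgeR adjusted p = 0.0170), the 1 member to do so. Rps4x, the X-linked small subunit gene, had 496, 740 and 556 CPM in parental and 405, 437 and 498 CPM in aggressive tumours, and these overlapped (log2 difference -0.42 ± 0.14, SE; edgeR adjusted p = 0.107). Cell markers shifted on p66High selection too. All 15 adipocyte markers lay below 0 (median -2.49) and 4 fell, and all 10 endothelial markers lay below 0 (median -0.66) and 1 fell. All 12 proliferation markers lay above 0 (median 0.39) and none passed. Their part was not tested.

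Whether the p66 difference itself changed with selection was tested as an interaction, the p66High minus p66Low difference in aggressive tumours less that in parental tumours. All 54 values were above 0, with a median of 0.38 (all genes tested, 0.05), where 45.9% of all genes were below 0; with RLE scaling 1 member and with library size scaling 2 lay below 0. In edgeR 5 members passed, all higher, where 4.37% of all genes passed in that direction and 7.99% in the other: Rpl3, Rpl37, Rpl8, Rps10 and Rps16. Unadjusted p was below 0.05 for 24 members, against 28.5% of all genes. Markers moved with the interaction too. All 13 T cell, all 9 B cell, 6 of 9 lymph node, 7 of 10 macrophage, 5 of 15 adipocyte and 3 of 9 tumour epithelium markers passed lower, while all 12 proliferation markers lay above 0 (median 0.60) and none of them passed. Their part in the result was not tested. Without the 3 libraries high in lymph node markers the median of the ribosomal protein genes was 0.50. That fit too has a lone p66Low aggressive tumour, and the calls among members were lost, as were most over all genes tested. The count was 1 without p66Low parental replicate 1 or 3, p66High parental replicate 3, p66Low aggressive replicate 1 or p66High aggressive replicate 3. It was 2 without p66High parental replicate 1 or 2 or p66Low aggressive replicate 2, 3 without p66Low aggressive replicate 3 and 8 without p66High aggressive replicate 1.

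Rpl8, which lies close to the peptide-bond centre, illustrates the pattern. It had 1256, 866 and 1268 CPM in p66Low parental, 737, 951 and 874 CPM in p66High parental, 682, 706 and 580 CPM in p66Low aggressive, and 832, 804 and 1037 CPM in the p66High aggressive tumours. Its p66High tumours overlapped between stages, and all p66Low aggressive tumours lay below all p66Low parental tumours. The interaction was 0.85 ± 0.24 (SE; edgeR adjusted p = 0.0389), and it did not pass with 10 of the 12 tumours left out in turn.

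Rps10, a small subunit protein near the mRNA entry, had 134, 113 and 144 CPM in p66Low parental, 111, 135 and 129 CPM in p66High parental, 94.4, 93.9 and 92.7 CPM in p66Low aggressive, and 119, 127 and 150 CPM in the p66High aggressive tumours. Here only the p66Low aggressive group stood apart from the rest. The interaction was 0.55 ± 0.16 (SE; edgeR adjusted p = 0.0479).

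Many genes on chromosomes 1 and 15 were already known to differ between these lines, so the members there were looked at separately: Rpl7 on chromosome 1, and Rpl3, Rpl8, Rpl30 and Rpl37 on chromosome 15. The 4 chromosome 15 members had a median log2 difference of -0.42 for p66High against p66Low in parental tumours (none passed, all 4 with an unadjusted p below 0.05), where that of all 54 was 0.03. On p66Low selection all 4 fell, with a median of -0.78. Between aggressive tumours their median was 0.44 and 1 of 4 rose, and on p66High selection it was 0.01. In p66Low parental tumours they thus stood higher than the other members did, with a median of 0.50, 0.13 and 0.56 against each gene's mean where the 49 members on other chromosomes had 0.10, -0.06 and 0.24.

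Rpl37, a zinc-binding protein of the large subunit on chromosome 15, had 181, 136 and 187 CPM in the p66Low parental and 105, 139 and 123 CPM in p66High parental tumours, which overlapped. It had 94.3, 105 and 96.9 CPM in p66Low aggressive and 124, 119 and 158 CPM in the p66High aggressive tumours. On p66Low selection it fell by 0.77 on the log2 scale (SE 0.15; edgeR adjusted p = 0.00629). Rpl8 differed by -0.79 ± 0.17 (SE; edgeR adjusted p = 0.00966) and Rpl30 by -0.57 ± 0.14 (SE; edgeR adjusted p = 0.0192) in the same comparison. Rpl8 did not pass without p66Low parental replicate 3, nor did Rpl30 without p66Low parental replicate 1 or 3 or p66Low aggressive replicate 2 or 3. Rpl30 had 48.4, 38.6 and 50.9 CPM in p66Low parental against 31.2, 33.0 and 37.7 CPM in p66High parental tumours, and these did not overlap.

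The 49 members on other chromosomes were also counted alone. Of these, 24 fell on p66Low selection (median -0.43), where 7.03% of all genes tested fell. Between aggressive groups 24 rose (median 0.39), where 8.92% of all genes rose. None passed between parental groups, where 8.08% of all genes passed. In the interaction 2 passed, Rps10 and Rps16, both higher, where 4.37% of all genes passed in that direction.

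**Figure D4:**
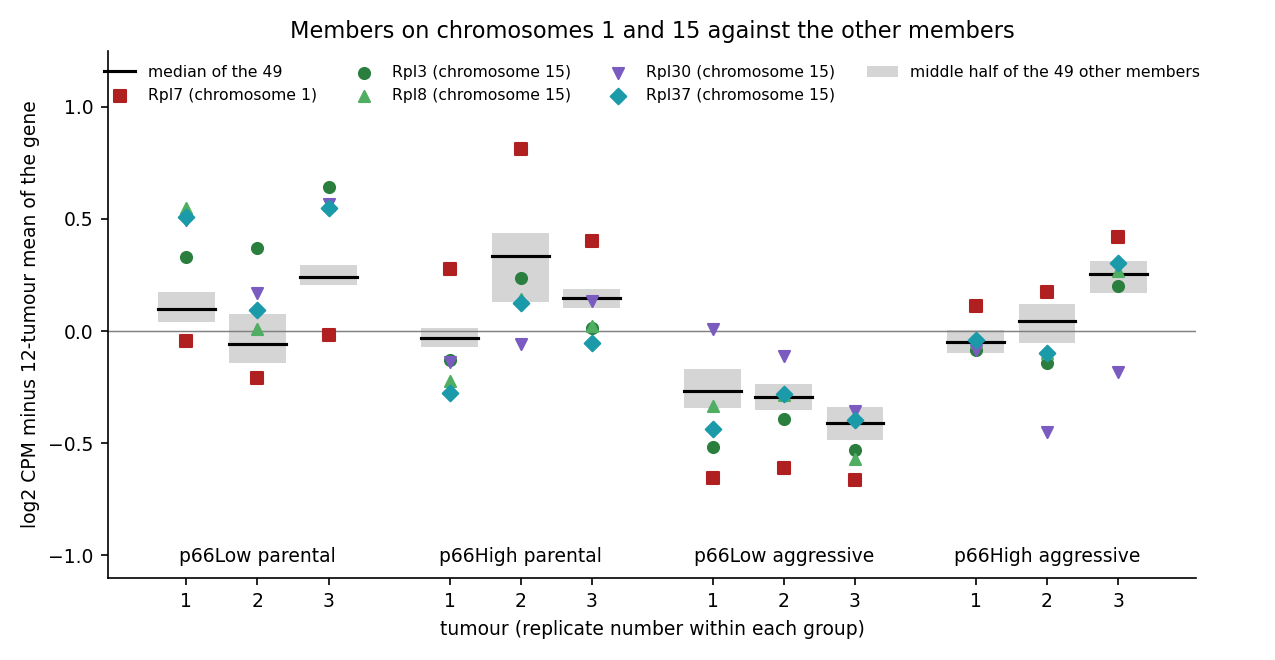
Log2 CPM minus the gene's 12-tumour mean for Rpl7 (chromosome 1) and for Rpl3, Rpl8, Rpl30 and Rpl37 (chromosome 15), by tumour, over a grey box that spans the 25th to 75th percentile of the other 49 members and a black bar at their median. Rpl7 lies above the box in the p66High parental tumours and below it in the p66Low aggressive ones, and 2 or more of the chromosome 15 genes lie above it in each p66Low parental tumour.

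Ribosomal protein genes outside the 54 and the wider translation machinery were read from lists drawn up with earlier results known. Of 24 other cytosolic ribosomal protein genes tested, 10 fell and none rose on p66Low selection (median -0.44, 24 of 24 below 0), and 12 rose and none fell between aggressive groups (median 0.39). These are 41.7% and 50% of the list, beside 7.03% and 8.92% of all genes. The largest of the latter were on chromosome 1: Rpl31 (log2 difference 0.93 ± 0.14, SE; edgeR adjusted p = 0.00113) and Rpl37a (0.84 ± 0.15, SE; edgeR adjusted p = 0.00338). On p66High selection none passed. Without the 3 libraries high in lymph node markers, the medians were -0.49 on p66Low selection and 0.50 between aggressive groups, and most calls were lost.

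One paralog pair, Rpl22 on chromosome 4 and Rpl22l1 on chromosome 3, went in opposite directions with p66 level. The part of chromosome position in this was not tested. Rpl22, a large subunit protein, had 301, 319 and 330 CPM in the p66Low parental and 175, 240 and 187 CPM in p66High parental tumours (log2 difference -0.66 ± 0.13, SE; edgeR adjusted p = 0.00943). Rpl22l1, a paralog whose expression Rpl22 protein is known to repress, had 62.2, 49.3 and 71.8 CPM in the p66Low parental and 94.9, 137 and 99.1 CPM in p66High parental tumours (log2 difference 0.85 ± 0.18, SE; edgeR adjusted p = 0.0124). Neither gene overlapped between these groups, and the call for Rpl22l1 was lost without p66Low parental replicate 1 or p66High parental replicate 2. That for Rpl22 was lost without the 3 libraries high in lymph node markers.

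In aggressive tumours Rpl22l1 had 49.7, 39.0 and 35.2 CPM in p66Low and 88.9, 99.97 and 95.6 CPM in p66High, a log2 difference of 1.20 ± 0.18 (SE; edgeR adjusted p = 0.00114). Rpl22 had 247, 245 and 240 CPM against 164, 187 and 218 CPM there, which did not overlap either, but its log2 difference of -0.37 had an edgeR adjusted p of 0.0656.

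Of the other paralogs, Rps27l, a target of p53, fell on p66Low selection, from 383, 255 and 327 CPM to 192, 190 and 212 CPM (log2 difference -0.70 ± 0.14, SE; edgeR adjusted p = 0.00737). Rpl7l1 and Rpl36al passed in no comparison, nor did Rpl39l, which had 209 counts over all libraries. The muscle paralog Rpl3l had 5 counts over all libraries and the testis paralog Rpl10l none, so neither was tested.

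Rpl24 itself, a protein of the bridge between the subunits, has a row of its own under the symbol RPL24 (ENSMUSG00000098274). It had 15.3, 17.7 and 20.2 CPM in p66Low parental, 13.9, 17.03 and 15.7 CPM in p66High parental, 12.3, 13.0 and 15.9 CPM in p66Low aggressive, and 14.8, 20.3 and 17.2 CPM in the p66High aggressive tumours. The 2 genes adjoin on the same strand and the annotation used for counting is not given, so how reads were shared between the 2 rows is unknown. The RPL24 row passed in no comparison, with a log2 difference of -0.37 on p66Low selection (edgeR adjusted p = 0.140) and 0.34 between aggressive groups (edgeR adjusted p = 0.161).

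Translation factors and other TOP mRNAs outside the ribosome were read next. Of 23 tested, 13 fell and 1 rose on p66Low selection (median -0.47; 56.5% fell, beside 7.03% of all genes), and 7 rose and 1 fell between aggressive groups (median 0.30; 30.4% rose, beside 8.92% of all genes). Of the 13 that fell, 6 are on chromosome 15. Eef2, the elongation factor that moves the ribosome along the mRNA, had 2929, 2800 and 3059 CPM in the p66Low parental and 1991, 2058 and 1970 CPM in the p66Low aggressive tumours (log2 difference -0.55 ± 0.11, SE; edgeR adjusted p = 0.00628). Between parental groups 1 rose and 4 fell (4.35% and 17.4%, beside 3.98% and 4.1% of all genes). All 4 that fell, Pabpc1, Hnrnpa1, Eif4b and Eif3h, are on chromosome 15, as are the members Rpl3, Rpl8, Rpl30 and Rpl37. Pabpc1, the poly(A)-binding protein, had a log2 difference of -0.77 (edgeR adjusted p = 0.00443). On p66High selection none passed. Without the 3 libraries high in lymph node markers the medians were -0.52 on p66Low selection and 0.40 between aggressive groups. Most calls were lost there, that of Eef2 included.

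Host genes of small nucleolar RNAs, whose spliced transcripts are TOP RNAs, included 5 of 11 that fell on p66Low selection (median -0.45; 45.5%, beside 7.03% of all genes) and 3 that rose between aggressive groups (median 0.18; 27.3%, beside 8.92%). Gas5 on chromosome 1 had 354, 338 and 406 CPM in p66Low parental, 445, 562 and 510 CPM in p66High parental, 257, 226 and 221 CPM in p66Low aggressive, and 385, 420 and 455 CPM in the p66High aggressive tumours. All 3 p66Low aggressive tumours lay below the other 9.

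Genes that assemble ribosomes had smaller median differences. Of 41 ribosome biogenesis genes, 3 fell on p66Low selection, with a median of -0.21 and all 41 below 0, and 4 rose between aggressive groups (median 0.11). These shares, 7.32% and 9.76%, lie near the 7.03% and 8.92% of all genes. Ncl, the nucleolar protein nucleolin, was among both (log2 differences -0.69, edgeR adjusted p = 0.0109, and 0.85, edgeR adjusted p = 0.00296). Of 20 genes of RNA polymerase I transcription, 2 fell and 2 rose in the same comparisons (medians -0.20 and 0.05), 10% each and likewise near those shares. Mitochondrial ribosomal protein genes, 76 in number, gave 9 that fell and none that rose on p66Low selection (median -0.14), and 9 that rose and 2 that fell between aggressive groups (median 0.12). The 9 are 11.8% of the list, beside 7.03% of all genes that fell and 8.92% that rose.

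Regulators of ribosomal protein genes did not move as one. Of 22 genes of the mTOR pathway and its TOP regulators, 1 rose and 1 fell on p66Low selection (median -0.01) and 3 rose and 3 fell between aggressive groups (median 0.00). On p66Low selection these are 4.55% each, beside 9.6% of all genes that rose and 7.03% that fell. Between aggressive groups they are 13.6% each, beside 8.92% that rose and 12.1% that fell. Mtor itself, on chromosome 4 like Rpl22, was lower in p66High tumours at both stages. Its log2 differences were -0.72 in parental (edgeR adjusted p = 0.00221) and -0.90 in aggressive tumours (edgeR adjusted p = 0.000341). The part of chromosome position in these differences was not tested. Sesn2, a stress-induced inhibitor of mTOR complex 1, fell on p66Low selection (-0.95, edgeR adjusted p = 0.00187).

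Of 14 genes of the Myc network, 2 fell on p66Low selection (median 0.02), and 2 rose and 2 fell between aggressive groups (median -0.11). These are 14.3% each, beside 7.03% of all genes that fell on p66Low selection. Between aggressive groups 8.92% of all genes rose and 12.1% fell. The list includes Ncl, also counted above as a ribosome biogenesis gene. Ncl is among those that fell on p66Low selection and those that rose between aggressive groups. Myc had 26.6, 21.0 and 32.2 CPM in p66Low parental, 24.7, 12.7 and 32.4 CPM in p66High parental, 26.1, 26.9 and 21.8 CPM in p66Low aggressive, and 39.0, 36.7 and 53.4 CPM in the p66High aggressive tumours. The p66High aggressive tumours were the highest, while the p66Low aggressive tumours lay within the range of the parental ones. Myc passed in no comparison, with an edgeR adjusted p of 0.0721 between aggressive groups and 0.0948 for p66High selection.

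Loss of balance in ribosome assembly is known to stabilise p53 through Mdm2, and genes of that route were read beside the members. Of 10 tested, 5 fell and 1 rose on p66Low selection, and 7 rose between aggressive groups. On p66Low selection these are 50% and 10%, beside 7.03% of all genes that fell and 9.6% that rose. Between aggressive groups they are 70%, beside 8.92% of all genes that rose. The p53 targets Ccng1 (-1.27, edgeR adjusted p = 2.22e-05) and Cdkn1a (-3.38, edgeR adjusted p = 0.000229) were among those that fell. Of the ribosomal proteins that bind Mdm2 as a particle with 5S RNA, named here after their values were seen, Rpl5 fell on p66Low selection (-0.40, edgeR adjusted p = 0.033) and Rpl11 had -0.23 (edgeR adjusted p = 0.287).

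**Figure D5:**
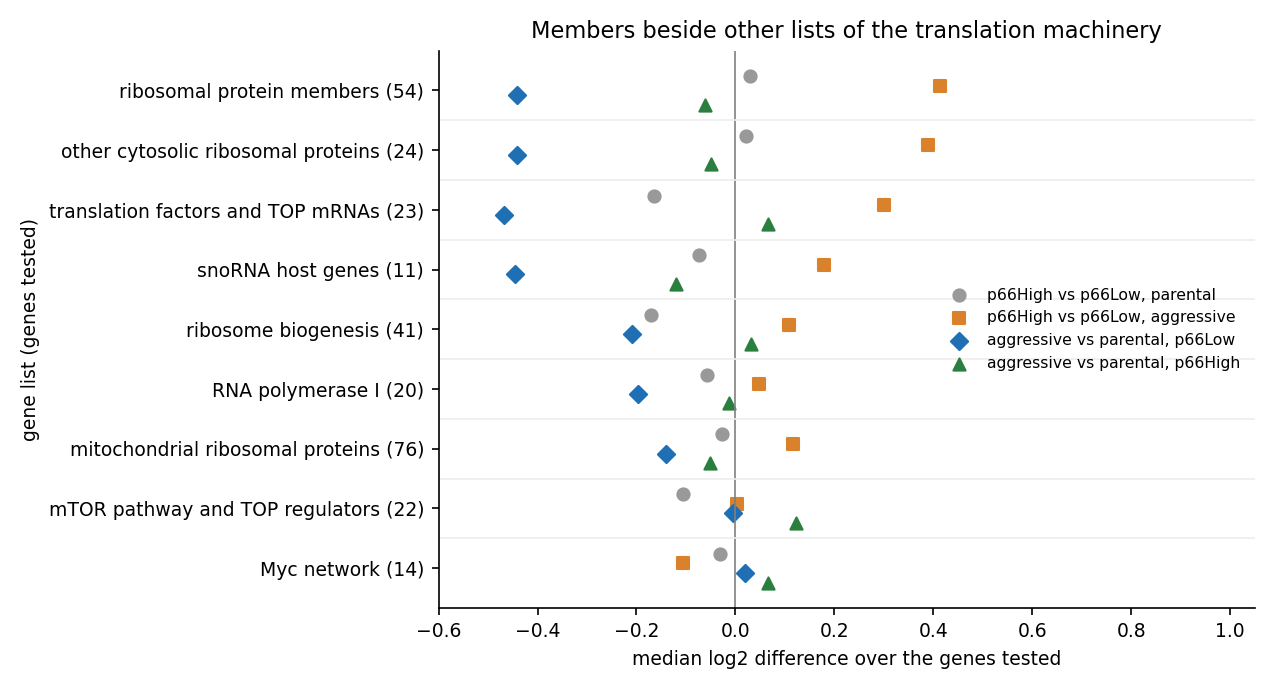
Median fitted log2 difference over the tested genes of each list (number tested in brackets) in 4 comparisons, one symbol each. For p66Low selection the 54 members, the other ribosomal protein genes, the translation factors and the small nucleolar RNA host genes lie between -0.47 and -0.44, and the mTOR and Myc lists lie near 0.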

How the data were processed

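Stranded libraries of rRNA-depleted total RNA were made from bulk tumours, per the labels' protocols. Reads were trimmed with Trimmomatic 0.32, aligned with STAR 2.3.0e to mm10 and counted with featureCounts 1.4.4, per the submitters' processing notes. What gene annotation and strand setting were used, and how reads with several matches were treated, is not given in the sources used here. The authors deposited whole-number read counts per gene, not normalized.

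The tests used edgeR 4.0.16 in R 4.3.3: filterByExpr, TMM scaling and a quasi-likelihood F-test over all 12 tumours (4 groups, 8 residual degrees of freedom), Benjamini-Hochberg adjustment over 19370 genes and a threshold of 0.05. The SE is the absolute log2 difference over the square root of F. Fits were tested on simulated data. Coordinates, transcript models and 50-base words come from GENCODE (37607 of 39017 identifiers matched), start windows from RefSeq. The row named Rpl24, whose identifier is Zbtb11 in GENCODE, was left out of the members after the data were seen. No replicate pair agreed within sampling noise (lowest chi-square per degree of freedom 19.1). Precision is limited by the number of tumours.

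The members, the lists and the tests were chosen with earlier results of these data known. Named were, per comparison, up to 6 members per direction past the threshold (or the most extreme one), the 3 highest and lowest per kilobase, the 3 most and least variable, all on chromosomes 1 and 15, the paralogs, Myc and up to 3 genes of other lists; a selection of these is printed, with Rpl5, Rpl11, Rpl35 and Rps3 added for their roles or sequence. Alternatives were other scalings and filters, DESeq2 1.42.0, limma-voom (limma 3.58.1), the 6 tumours compared only, sums of tumours with a shared title number, and omission of single tumours, of the 3 libraries high in lymph node markers, or of chromosomes 1 and 15.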

Additional observations from a re-analysis of the deposited data

Results flagged for a closer look

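In 5 of the 54 ribosomal protein genes the p66High minus p66Low difference differed between aggressive and parental tumours by the interaction term of the edgeR fit. All 5 passed higher, where 4.37% of all genes tested passed in that direction and 7.99% in the other. The interaction on the log2 scale was 0.89 for Rpl3 (edgeR adjusted p = 0.0117), 0.89 for Rpl37 (edgeR adjusted p = 0.0201), 0.85 for Rpl8 (edgeR adjusted p = 0.0389), 0.55 for Rps10 (edgeR adjusted p = 0.0479) and 1.13 for Rps16 (edgeR adjusted p = 0.0485). Rpl3, Rpl37 and Rpl8 are on chromosome 15. With 1 tumour left out in turn, Rpl3 passed in all 12 fits, Rpl37 did not pass in 5, and Rpl8, Rps10 and Rps16 did not pass in 10 each. Rps16 had 22.4 and 24.1 CPM in p66High aggressive replicates 2 and 3, beside 11.9 CPM in replicate 1. None of the 5 passed without the 3 libraries high in lymph node markers.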

How the results depend on the processing

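Shifts were set against the pooled SD of tumours within groups (0.14). This yardstick is loose for fits without 1 tumour, since 1 of 3 moves a group mean by only part of its SD. The medians of the 54 genes moved by less than the pooled SD under every alternative run. Leaving out 1 tumour at a time, they ran from -0.51 to -0.35 for p66Low selection, 0.28 to 0.47 between aggressive groups, -0.05 to 0.11 between parental groups, -0.16 to 0.01 for p66High selection and 0.27 to 0.47 for the interaction; other alternatives gave -0.55 to -0.33 for p66Low selection and 0.33 to 0.51 between aggressive groups. With the row named Rpl24 kept as a member, 55 in all, an alternative chosen after seeing the data, every count was unchanged and the medians were -0.44, 0.41, 0.02, -0.06 and 0.38 in the same order. Counts of members past the threshold were less steady, and the cause was not tested. With 1 tumour left out they ran from 5 to 31 for p66Low selection (29 with all), 6 to 29 between aggressive groups (26), 0 to 3 between parental groups (1), 0 to 1 for p66High selection (0) and 1 to 8 for the interaction (5). Library size scaling gave 14, 15 and 2 members for p66Low selection, aggressive groups and the interaction. Without the 3 libraries high in lymph node markers, which leaves 1 p66Low aggressive tumour, these were 1, 2 and 0, and between parental groups 0. DESeq2 gave 6 between parental groups (5 lower and 1 higher), 2 for p66High selection (1 lower and 1 higher) and 13 for the interaction, all higher. Over all 19370 genes DESeq2 called 2549, 2261 and 3526 in the same order, in either direction. The interaction had 3 members with RLE scaling, 3 with limma-voom, 2 with summed tumours and 2 without chromosomes 1 and 15. Between parental groups the count was 0 without chromosomes 1 and 15 and 0 with only the 6 tumours compared. Over all genes tested, leaving out 1 tumour gave 1545 to 3505 genes for p66Low selection (3221 with all tumours), 2438 to 4502 between aggressive groups (4077), 871 to 1927 between parental groups (1565), 457 to 1469 for p66High selection (1150) and 1179 to 3278 for the interaction (2395). Rpl30 between aggressive groups changed sign, to 0.14 without the 3 libraries, and with 1 tumour left out it ran from -0.17 to 0.019, the latter without p66High aggressive replicate 2. No paired analysis was possible because the labels give no replicate numbers that the groups share. Counting error weighs most on Rps27, whose lowest count in a library was 67, the lowest of any member.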
